A study of Cavia porcellus with 13 samples.

Results

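Skin at the site of a tick bite was compared between guinea pigs labelled saliva immune and guinea pigs on their first exposure to ticks. The comparison holds 6 of the 13 libraries of the study, 3 in each group, and was chosen by group label. The table of 26855 genes was reduced to the 14513 (54.0%) with at least 1 TPM (a gene's share of a library per unit of length) in at least 2 of the 6 libraries. Of the genes tested, 2663 carried no symbol.

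Both groups were skin samples with a bite, taken 4 days after tick attachment, and the series asked how repeat exposure changes the response at the bite. First exposure animals had the current bite as their first, and saliva immune animals were, by their label, already immune to saliva when bitten. The route, dose and schedule of immunization, the tick species, and the strain, sex and age of the animals were not given in the sources used here. All 6 libraries share the title prefix CK1 with 2 libraries of naive skin, labelled without a bite, whose values are given beside the results. The labels do not explain the prefixes, and taking each as 1 experiment is an assumption. The other 5 libraries have the prefix EF19-5 and comprise 2 with 2 bites, 2 with 3 bites and 1 naive. The labels do not say whether the 3 libraries of a group are 3 animals. The spread behind each p-value is the one among these libraries and may be technical.

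Guinea pigs are known for acquired tick resistance, in which animals that have been bitten, or exposed to tick saliva proteins, reject later ticks. Basophils, mast cells, eosinophils, antibody and complement are the classical parts of that response, and redness and itch appear at the bite. The dermis around a bite is held together by fibroblast products: collagens, fibronectin, microfibrils and small proteoglycans. Resident dermal macrophages carry scavenger receptors and make complement C1q.

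Genes with a higher level in saliva immune skin included structural genes of the dermal matrix (FN1, COL14A1 and FBN1), of which FN1 and COL14A1 had the smallest p. Macrophage scavenger receptors, C1q chains and subunits of the phagocyte oxidase were also among them. So were the body position gene HOXC8 (1.78 log2 units, against 1.75 for FN1) and the muscle gene MYBPC2 (1.53). Genes with a lower level included FAR2, ELOVL5, CLDN17 and CXCL10. No gene passed the adjusted test: limma called 0 of 14513 (0%) at a Benjamini-Hochberg adjusted p under 0.05, and the smallest adjusted p was 0.102, for FN1. At an unadjusted p under 0.05 there were 445 genes (3.07%), fewer than the 725.65 that uniform p-values would give. Of these, 360 were higher in saliva immune skin (2.48%) and 85 lower (0.586%). Every saliva immune library lay above every first exposure library for 767 genes (5.28%), and below for 191 (1.32%). With 3 libraries against 3, an exact two-sided permutation test of one gene cannot give a p below 0.1. Differences below are described with limma's unadjusted p and were not called.

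The excess of higher over lower genes depended on how the libraries were scaled. The share of higher genes among those at an unadjusted p under 0.05 was 80.9% on the deposited scale, 57.7% after median-of-ratios scaling and 54.1% after quantile normalization. Without saliva immune replicate 3 it was 43.6%, from 1065 higher and 1375 lower genes. Over all tested genes, 7844 (54%) had a difference above 0, and the median difference was 0.02 on the log2(TPM + 1) scale. The median 95% interval reached 0.55 log2 units to either side, and for 11121 genes (76.6%) the whole interval lay within 1 log2 unit of no difference. Differences beyond 1 log2 unit, whatever the p, were found for 123 higher and 29 lower genes.

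**Figure D1:**
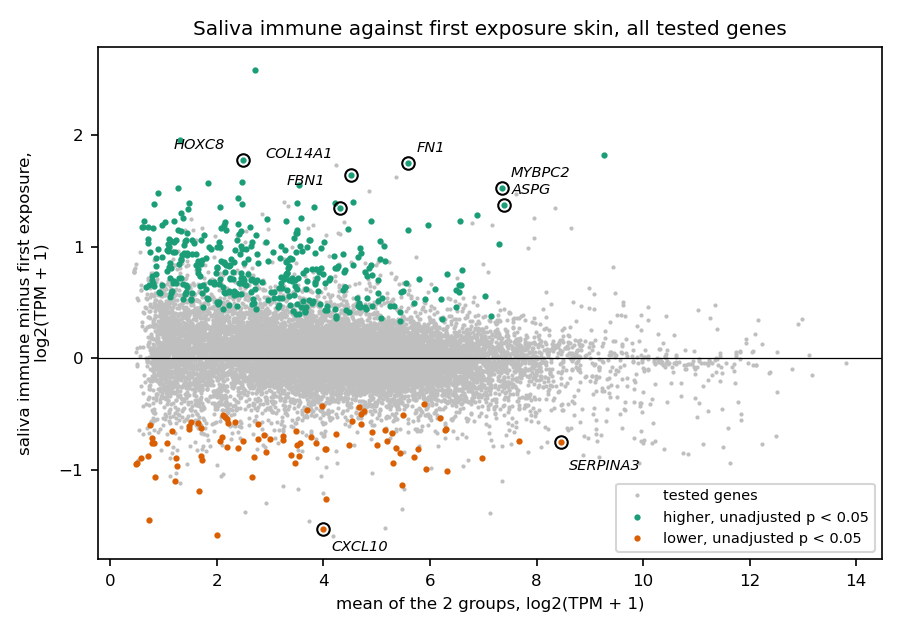
Each point is one of the 14513 tested genes: the horizontal axis is the mean level of both groups and the vertical axis the difference, saliva immune minus first exposure, both in log2(TPM + 1). Coloured points have an unadjusted p under 0.05 (360 higher, 85 lower), and FN1, COL14A1, FBN1 and HOXC8 lie above 1.3 while CXCL10 lies at -1.53.

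The saliva immune libraries differed from each other as much as from first exposure libraries. Pearson correlations of log2(TPM + 1) across genes were 0.929 to 0.979 among saliva immune libraries and 0.950 to 0.981 between groups. Among first exposure libraries they were 0.971 to 0.979. The low values among saliva immune libraries, 0.929 and 0.948, were both pairs with replicate 3. In a principal component analysis the leading axis (51.3% of the variance) placed saliva immune replicate 3 at 51.9 and saliva immune replicate 2 at -46.1, with all first exposure libraries between them. Of 37 skeletal muscle genes, the summed share of the library was 6.78%, 4.95% and 7.58% in first exposure skin. It was 10.03%, 11.1% and 2.56% in saliva immune skin, and 10.2% and 17.8% in CK1 naive skin. Among the saliva immune libraries the hair follicle share ran the other way: the 22 hair follicle genes took 0.593% of saliva immune replicate 2 and 1.55% of replicate 3. KRT14, the main keratin of basal epidermal cells, stood at 8031, 11212 and 9815 TPM in first exposure skin and 9174, 7503 and 9469 TPM in saliva immune skin, so all 6 libraries carried the defining gene of skin epithelium. The part that tissue composition plays in the differences below was not tested beyond a fit with a muscle score as a covariate.

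**Figure D2:**
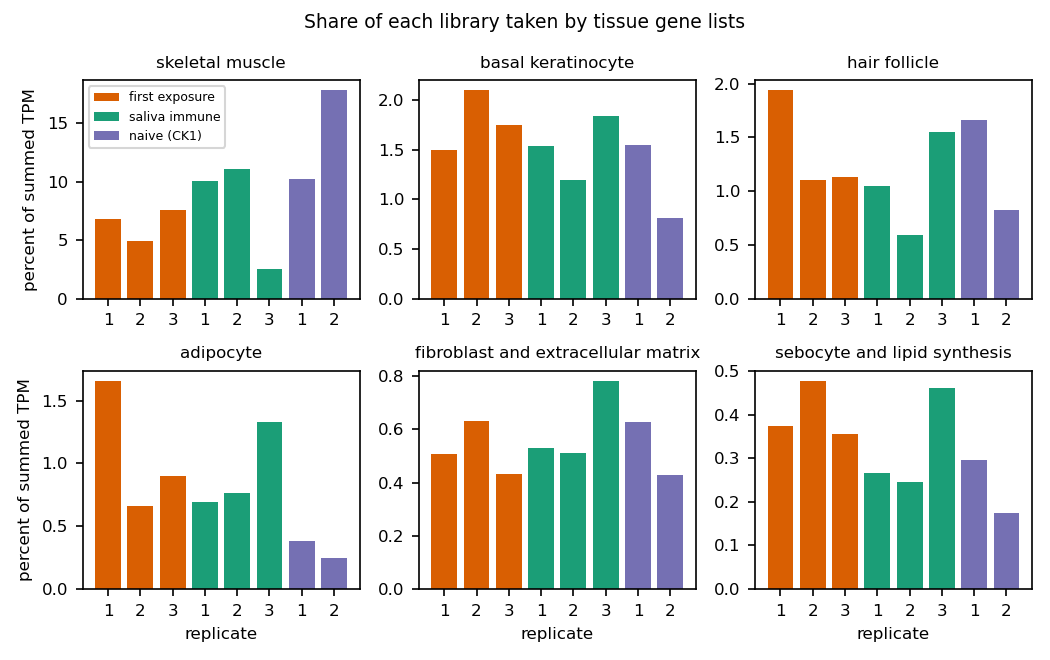
Bars give the percent of each library's summed TPM taken by 6 tissue gene lists, by replicate, for first exposure, saliva immune and CK1 naive skin. Saliva immune replicate 3 has the lowest muscle share (2.56%) and a high share of the epithelial, fat and matrix lists, while replicate 2 is the opposite for muscle and hair follicle.

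Fibronectin was the most clearly separated gene. FN1 encodes fibronectin, the glycoprotein that links cells to collagen and forms the provisional matrix of wounds. Its level was 27.8, 24.9 and 23.2 TPM in first exposure skin and 86.1, 97.8 and 78.8 TPM in saliva immune skin. The groups did not overlap, and the gap between them was several times the spread within either. The mean was 25.3 ± 2.29 TPM (SD, n = 3) against 87.5 ± 9.58 TPM (SD, n = 3), a 3.46-fold ratio of means. On the log2(TPM + 1) scale the difference was 1.75 (SE 0.16, 95% interval 1.39 to 2.12; limma adjusted p = 0.102). CK1 naive skin had 85.7 and 105 TPM, so saliva immune skin stood at 92.0% and first exposure skin at 26.6% of the naive mean. In the EF19-5 libraries FN1 was 99.3 TPM in naive skin, 285 and 45.2 TPM with 3 bites, and 173 and 101 TPM with 2 bites. One library with 3 bites thus lay below all 3 naive libraries and the other bitten ones within or above the naive range, and none was as low as the first exposure libraries. FN1 passed the adjusted test in the fit that added the 2 CK1 naive libraries to the estimate of spread (adjusted p = 0.0401) and in the fit with a muscle score (adjusted p = 0.0285). It did not pass in the limma fit of all 13 libraries (adjusted p = 0.999987), after median-of-ratios scaling (0.721) or after quantile normalization (0.414). Over all alternatives its adjusted p ranged from 0.000329, with weights that had not converged, to 0.999987. Leaving out single libraries kept the difference between 1.67 and 1.82.

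COL14A1 encodes collagen XIV, which binds the surface of collagen fibrils. It stood at 12.5, 9.73 and 13.4 TPM in first exposure skin and 34.8, 44.0 and 38.8 TPM in saliva immune skin, with no overlap. The difference was 1.65 log2 units (SE 0.18; limma adjusted p = 0.225), and naive skin had 49.0 and 59.5 TPM, above both groups. FBN1 encodes fibrillin, the backbone of the microfibrils on which elastic fibres form. Its values were 15.7, 9.35 and 9.49 TPM against 31.2, 32.2 and 27.2 TPM in saliva immune skin, a difference of 1.35 log2 units (SE 0.23). Naive skin had 30.2 and 41.5 TPM of FBN1, at or above the saliva immune level. For both genes the first exposure libraries were the low ones among the 8 CK1 libraries.

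Beaded-filament and fibril-binding genes had smaller differences. COL6A3, a chain of the beaded filament collagen VI, had 24.8, 21.6 and 20.5 TPM in first exposure skin and 34.7, 37.0 and 43.0 TPM in saliva immune skin. Its partner chain COL6A2 had 69.8, 84.2 and 72.8 TPM against 105, 134 and 120 TPM. The differences were 0.75 (SE 0.16) and 0.65 (SE 0.16) log2 units, and neither chain overlapped between groups. DPT, dermatopontin, a small fibril-binding protein of the dermis, had 116, 86.9 and 123 TPM against 194, 284 and 194 TPM, a difference of 1.03 log2 units (SE 0.22). LUM, the proteoglycan lumican that spaces collagen fibrils, had 20.9, 18.9 and 12.7 TPM against 27.6, 37.9 and 34.5 TPM, a difference of 0.91 (SE 0.23). Dcn, decorin, of the same family, had 117, 118 and 87.5 TPM against 146, 194 and 137 TPM. PCOLCE2, an enhancer of procollagen processing, had 18.6, 10.7 and 10.5 TPM against 36.7, 52.8 and 22.8 TPM, with naive skin at 47.0 and 88.1 TPM. In each of these genes the lowest saliva immune library exceeded the highest first exposure library, as it did for 5.28% of all tested genes. PCOLCE2 met a naming rule that required this, and the other genes here were chosen after their values were seen.

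PDGFRA, the growth factor receptor that marks dermal fibroblasts, had 6.25, 8.40 and 4.90 TPM in first exposure skin and 11.6, 10.5 and 11.2 TPM in saliva immune skin. The difference was 0.71 log2 units (SE 0.21), without overlap, and naive skin had 11.4 and 10.2 TPM. In bulk skin, fewer cells of a type and less RNA per cell cannot be told apart, for this and every gene here.

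The main fibrillar collagens did not separate the groups. COL1A1, a chain of collagen I, had 757, 1292 and 689 TPM in first exposure skin and 981, 817 and 1440 TPM in saliva immune skin. Its interval ran from -0.49 to 1.01 log2 units around a difference of 0.26. COL3A1, collagen III, differed by 0.39 with an interval of -0.17 to 0.96. POSTN, periostin, a matrix protein made by activated fibroblasts, differed by -0.26, with an interval of -0.90 to 0.37, and THBS2, a thrombospondin that restrains vessel growth, by -0.32. These intervals include no difference and also, in one direction, differences as large as that of Dcn (0.56).

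Over the whole fibroblast and matrix list, 26 of 30 genes were in the table and all 26 were tested. Higher values in saliva immune skin were seen in 20 and lower in 6. At an unadjusted p under 0.05, 9 were higher and 0 lower, and none of the 9 overlapped between groups. Over all tested genes 2.48% were higher and 0.586% lower at that p. For 5.28% of all tested genes every saliva immune library lay above every first exposure library. The list's median difference was 0.31 log2 units, against 0.02 over all genes. Between 5 and 14 members were higher at that p across the alternatives, with the lowest count in the fit of all 13 libraries. Without first exposure replicate 3 the count was 6, and without saliva immune replicate 3 it was 9 higher and 4 lower. The lists of collagen chains, elastic fibres and proteoglycans were drawn up after values were seen, so their counts are a description. Of the 21 collagen chains tested, 3 were higher at that p (COL14A1, COL6A3 and COL6A2) and 0 lower, with a median of 0.20. Without saliva immune replicate 2 there were 5 higher, and without replicate 3 there were 3 higher and 3 lower. Among 17 elastic fibre and microfibril genes, FBN1, FBLN1, EFEMP2 and FBLN5 were higher at that p, and among 11 small leucine-rich proteoglycans, LUM, ECM2 and Dcn were. The medians of these lists were 0.23 and 0.29, and their counts ranged over the alternatives from 1 to 6 and from 0 to 6. The naive mean lay nearer the saliva immune mean than the first exposure mean for 20 of the 26 fibroblast genes (76.9%), compared with 57.2% of all tested genes.

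**Figure D3:**
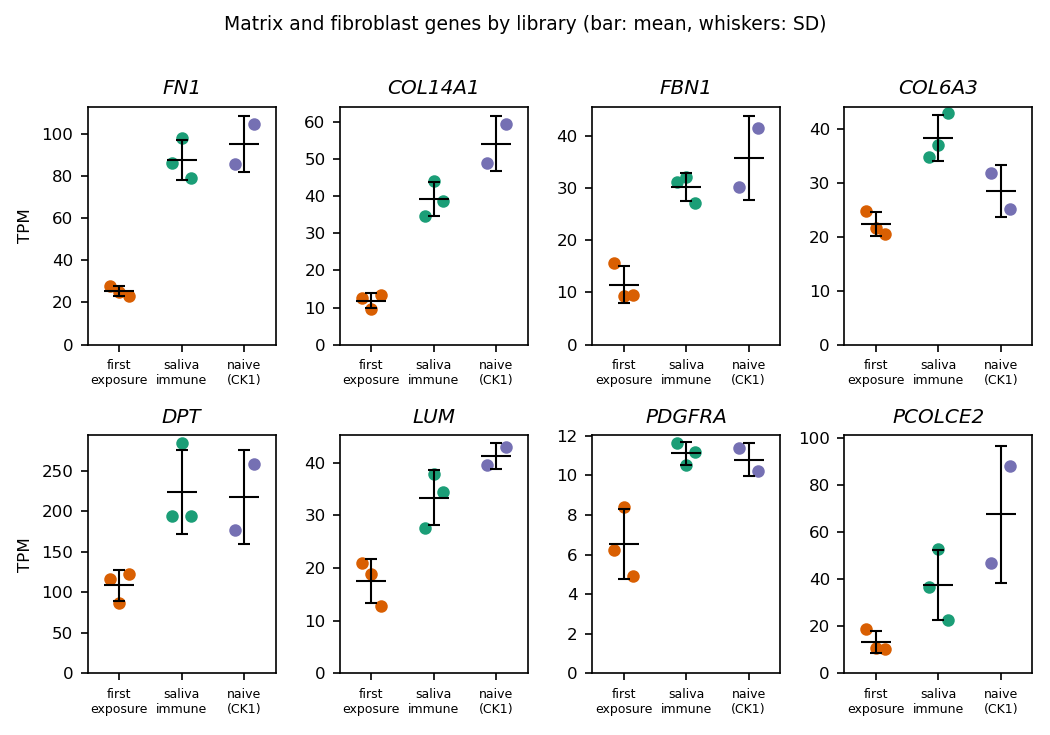
Points are TPM in single libraries for 8 matrix and fibroblast genes in first exposure (3), saliva immune (3) and CK1 naive skin (2); horizontal bars are means and whiskers SD. In every panel the saliva immune points lie above the first exposure points. For FN1 the lowest saliva immune value is 78.8 TPM and the highest first exposure value 27.8 TPM. FN1, COL14A1, FBN1 and PCOLCE2 met a naming rule that required this separation, and the other genes were chosen after their values were seen.

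HOX genes are expressed in dermal fibroblasts according to position along the body, and 3 of them were higher in saliva immune skin at an unadjusted p under 0.05. HOXC8 had 0.521, 4.98 and 1.33 TPM in first exposure skin and 7.89, 6.70 and 11.4 TPM in saliva immune skin, a difference of 1.78 log2 units (SE 0.49). Naive skin had 10.5 and 9.92 TPM, so first exposure replicates 1 and 3 stood apart from the other CK1 libraries. HOXC6 had 6.04, 8.69 and 4.99 TPM against 13.9, 13.04 and 8.18 TPM, and 18.1 and 17.9 TPM in naive skin. Of 15 HOX and limb-position genes tested, 12 were higher and 3 lower, with a median of 0.35. At that p 3 were higher (HOXC8, HOXC6 and HOXD4) and 0 lower, against 2.48% higher over all tested genes. That count was 1 without first exposure replicate 3 and 10 higher with 1 lower without saliva immune replicate 3. PITX1, a marker of the hindlimb, had 10.5, 10.1 and 16.1 TPM against 38.3, 20.8 and 1.78 TPM, so 1 saliva immune library was the lowest and another the highest. The body site of each biopsy was not given in the sources used here, and the part it plays in the matrix differences was not tested. Whether counting used strand was not given either, so reads of antisense genes at HOX loci cannot be told apart.

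Macrophage genes formed the next group. MRC1, the mannose receptor of tissue macrophages, had 4.70, 6.51 and 4.71 TPM in first exposure skin and 10.1, 19.8 and 12.8 TPM in saliva immune skin. The difference was 1.23 log2 units (SE 0.27), without overlap, and naive skin had 4.22 and 4.35 TPM. Among the 8 CK1 libraries the saliva immune ones were the highest. In the EF19-5 libraries MRC1 was 9.70 TPM in naive skin, close to the lowest saliva immune value, 45.7 and 2.74 TPM with 3 bites, and 48.5 and 18.3 TPM with 2 bites. STAB1, a scavenger receptor of resident macrophages and some endothelium, had 8.63, 10.5 and 5.75 TPM against 15.5, 21.3 and 17.7 TPM. LYVE1, a hyaluronan receptor of lymphatic vessels and perivascular macrophages, had 7.61, 5.13 and 7.07 TPM against 17.5, 24.6 and 11.3 TPM. PROX1, the defining factor of lymphatic endothelium, differed by 0.09 log2 units in the same libraries. SIGLEC1, the sialic acid receptor CD169, was under 0.5 TPM in all first exposure libraries and 1.63, 3.08 and 1.497 TPM in saliva immune skin, and passed the filter only through the latter.

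CD163, the haemoglobin scavenger receptor, had 14.4, 18.5 and 11.4 TPM against 18.2, 37.9 and 23.9 TPM, overlapping by 1 library. AIF1, a general macrophage marker, differed by 0.89 log2 units (SE 0.32). CD68, a lysosomal marker of phagocytes, differed by 0.06 with an interval of -0.63 to 0.74. CD14, the endotoxin co-receptor of monocytes, differed by 0.34 (interval -0.27 to 0.94), and CSF1R, the receptor macrophages need to survive, by 0.32 (interval -0.43 to 1.08). Saliva immune replicate 2 was the highest library for MRC1, STAB1, LYVE1, SIGLEC1 and CD163. The list of scavenger and endocytic receptors was drawn up after values were seen, so its counts are a description. Its 10 tested members had a median of 0.60. At an unadjusted p under 0.05, 6 were higher and 0 lower, against 2.48% higher over all tested genes. SIGLEC1 among the 6 had passed the filter through saliva immune libraries alone. Leaving out first exposure replicate 1 or 3 left 4 of them, the fit of all 13 libraries left 2, and without saliva immune replicate 3 there were 6 higher and 2 lower.

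All 12 monocyte and macrophage genes tested (of 21 listed, 15 of them in the table) were higher in saliva immune skin, with a median of 0.52. Over all tested genes 54% were higher. Some other lists were as one-sided, with smaller medians: 20 of 20 oxidative phosphorylation genes (median 0.10) and 24 of 25 cell cycle genes (0.19) were higher. At an unadjusted p under 0.05, 5 were higher, against 2.48% of all tested genes. The CK1 naive mean lay below the means of both bitten groups for all 12, as it did for 8484 of the 14513 tested genes. The EF19-5 naive library was not in that count. Its C1QB (62.0 TPM) was above every first exposure library and its C1QA (21.3 TPM) below. Without saliva immune replicate 2, 3 were higher and 1 lower at that p, without first exposure replicate 1 there were 3 higher, and in the fit of all 13 libraries there were 0.

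Complement genes overlapped with this group. C1QB and C1QC encode chains of C1q, the antibody-binding start of the classical pathway, and are made mostly by macrophages. C1QB had 36.2, 44.1 and 37.1 TPM in first exposure skin and 65.0, 140 and 82.1 TPM in saliva immune skin, a difference of 1.2 log2 units (SE 0.28). C1QC had 29.9, 32.7 and 29.0 TPM against 46.3, 102 and 69.9 TPM, a difference of 1.15 (SE 0.27). The third chain, C1QA, did not follow its partners: it had 34.2, 40.0 and 37.6 TPM against 22.1, 140 and 25.8 TPM. In saliva immune replicates 1 and 3 C1QA was therefore below its first exposure range while C1QB and C1QC were above theirs, and its difference of 0.22 turned to -0.62 without replicate 2.

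Some other complement genes were higher as well. C2, a protease that forms the classical C3 convertase, had 3.27, 3.24 and 2.93 TPM against 4.21, 8.99 and 5.70 TPM. C1S, a protease of the C1 complex, had 66.0, 57.6 and 56.4 TPM against 78.0, 101 and 83.9 TPM, and C7, a part of the membrane attack complex, had 8.82, 5.11 and 7.35 TPM against 11.4, 18.3 and 14.2 TPM. None of the 3 overlapped between groups. Every saliva immune library lay above every first exposure library for 6 of the complement genes tested, against 5.28% of all tested genes. C3, the central component, had 99.5, 52.0 and 53.9 TPM against 62.8, 72.5 and 91.1 TPM and overlapped fully. Of 14 complement genes tested, 12 were higher and 2 lower, with a median of 0.58. At an unadjusted p under 0.05, 7 were higher and 0 lower, against 2.48% higher over all tested genes. The count fell to 3 without first exposure replicate 3, to 4 higher and 1 lower without saliva immune replicate 2, and to 1 in the fit of all 13 libraries. C5ar1, the receptor of the C5a fragment, passed the filter through the saliva immune libraries alone.

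Subunits of the phagocyte NADPH oxidase, which makes superoxide against microbes, were higher together. NCF4 had 4.22, 5.25 and 7.35 TPM in first exposure skin and 12.6, 31.1 and 14.7 TPM in saliva immune skin, a difference of 1.55 log2 units (SE 0.35). CYBB, the catalytic subunit, had 1.198, 1.96 and 1.37 TPM against 2.20, 5.71 and 4.72 TPM. NCF1, a cytosolic activator, differed by 0.84 log2 units. NCF4, CYBB and NCF1 were each free of overlap, and CK1 naive skin was below or within the first exposure range in each. The EF19-5 naive library had 9.50 TPM of NCF4 and 3.33 TPM of CYBB, above the first exposure range. Its NCF1, at 2.60 TPM, was within that range. Of all tested genes, 5.28% had every saliva immune library above every first exposure library. ITGAM, the complement receptor chain CD11b, had 2.66, 2.48 and 2.59 TPM against 4.67, 4.42 and 4.18 TPM. Fcgr2b, an inhibitory antibody receptor, had 5.23, 6.55 and 10.8 TPM against 12.7, 37.4 and 16.7 TPM.

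These genes are shared by neutrophils, monocytes and macrophages. S100A9, an abundant neutrophil and stressed-keratinocyte protein, had 212, 717 and 2231 TPM against 1139, 416 and 277 TPM, with a wide overlap. Of 11 neutrophil genes tested, 8 were higher, and the median was 0.59. At an unadjusted p under 0.05, 5 were higher (among them NCF4, ITGAM, CYBB and NCF1), against 2.48% of all tested genes. Leaving out saliva immune replicate 2 left 2 of them, leaving out first exposure replicate 1 or 2 left 3, and the fit of all 13 libraries also left 3.

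**Figure D4:**
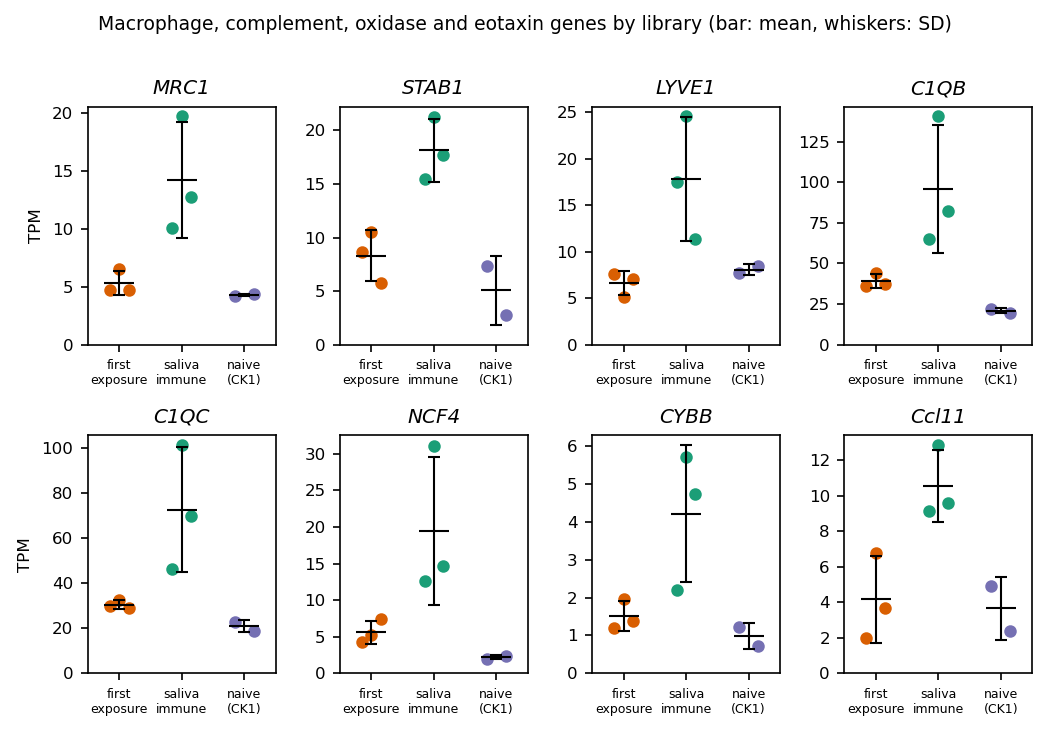
Points are TPM in single libraries for 8 macrophage, complement, oxidase and eotaxin genes in first exposure, saliva immune and CK1 naive skin; bars are means and whiskers SD. Saliva immune replicate 2 is the highest point in all 8 panels, as for C1QB at 140 TPM, and no naive point reaches the lowest saliva immune point in any panel.

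Mast cell and basophil genes were low but leaned the same way. FCER1G, the signalling chain of the IgE receptor and of other antibody receptors, had 4.58, 7.75 and 7.36 TPM in first exposure skin and 7.65, 18.0 and 12.9 TPM in saliva immune skin. Cma1, the protease chymase of mast cells, had 0.0832, 0.307 and 1.77 TPM against 2.06, 2.57 and 1.62 TPM. HDC, the enzyme that makes histamine, had 0.777, 0.354 and 0.792 TPM against 1.72, 1.53 and 1.04 TPM, without overlap but with an interval of -0.01 to 1.14 log2 units. MS4A2, the IgE receptor beta chain that defines mast cells and basophils, had 2.28, 2.57 and 1.84 TPM against 2.31, 6.01 and 5.36 TPM. CPA3, a mast cell protease, differed by 0.16 with an interval of -0.36 to 0.67. All 8 tested genes of the list were higher, against 54% of all tested genes. Of the 8, 2 had passed the filter through saliva immune libraries alone. At an unadjusted p under 0.05, 2 were higher, against 2.48% of all tested genes. That count was 0 after either rescaling, without saliva immune replicate 2, without first exposure replicate 1, and in the fit of all 13 libraries. It was 1 without first exposure replicate 2 or replicate 3. Hnmt, which breaks histamine down, had 5.77, 6.97 and 4.83 TPM against 10.007, 16.4 and 11.5 TPM, a difference of 0.97 log2 units (SE 0.23).

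Type 2 response genes split. IL33, an alarm cytokine of epithelium and stroma that activates mast cells and type 2 lymphocytes, had 8.75, 7.17 and 6.96 TPM in first exposure skin and 16.3, 20.4 and 11.8 TPM in saliva immune skin. Its difference was 0.97 log2 units (SE 0.23), and naive skin had 9.67 and 12.7 TPM. Ccl11, the eosinophil attractant eotaxin, had 2.01, 6.80 and 3.68 TPM against 9.12, 12.9 and 9.61 TPM. Of the 12 genes on the eosinophil list, Ccl11 was the only 1 tested. In the EF19-5 libraries Ccl11 was 6.81 TPM in naive skin, 2.61 and 4.21 TPM with 2 bites, and 8.20 and 2.92 TPM with 3 bites. Ptgdr2, the prostaglandin receptor of eosinophils, basophils and type 2 T cells, had 0.767, 1.69 and 1.44 TPM against 2.17, 2.90 and 4.82 TPM. None of these 3 overlapped between groups, and all 3 were named for the smallest p of a list. Of all tested genes, 5.28% had every saliva immune library above every first exposure library. ARG1, arginase, leaned the other way, with 8.26, 17.1 and 17.1 TPM against 8.15, 3.63 and 9.24 TPM. CCL17, an attractant of type 2 T cells, was listed at 0 in both CK1 naive libraries and differed by -0.04 between the bitten groups, with an interval of -1.32 to 1.24. The median of the 14 type 2 genes tested was -0.09. At an unadjusted p under 0.05, 3 were higher and 1 lower, against 2.48% and 0.586% of all tested genes. Without saliva immune replicate 3 these counts were 2 higher and 5 lower, and ARG1 was past that p no longer when any of first exposure replicates 2 and 3 or saliva immune replicates 1 and 2 was left out.

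Of 13 interferon gamma and type 1 response genes, 5 were higher and 8 lower in saliva immune skin, with a median of -0.13. CXCL10, a chemokine induced by interferon that draws T cells, had 8.80, 20.0 and 57.2 TPM in first exposure skin and 4.27, 6.18 and 12.2 TPM in saliva immune skin. The groups overlapped by 1 library, and the difference of -1.53 log2 units had an interval of -3.02 to -0.03. CXCL11, from the same family, differed by -0.68 and IRF1, an interferon-induced transcription factor, by -0.48, both with intervals across 0. CXCL10 was the only one of the 13 genes at an unadjusted p under 0.05. First exposure replicate 3 held the highest CXCL10, IRF1 and S100A9 values, and without it the CXCL10 difference was -0.85. T cell genes had a median of 0.05, with 0 of 10 at that p. CD3E, a chain of the T cell receptor complex, had 2.80, 5.65 and 3.98 TPM against 2.12, 3.94 and 5.27 TPM.

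**Figure D5:**
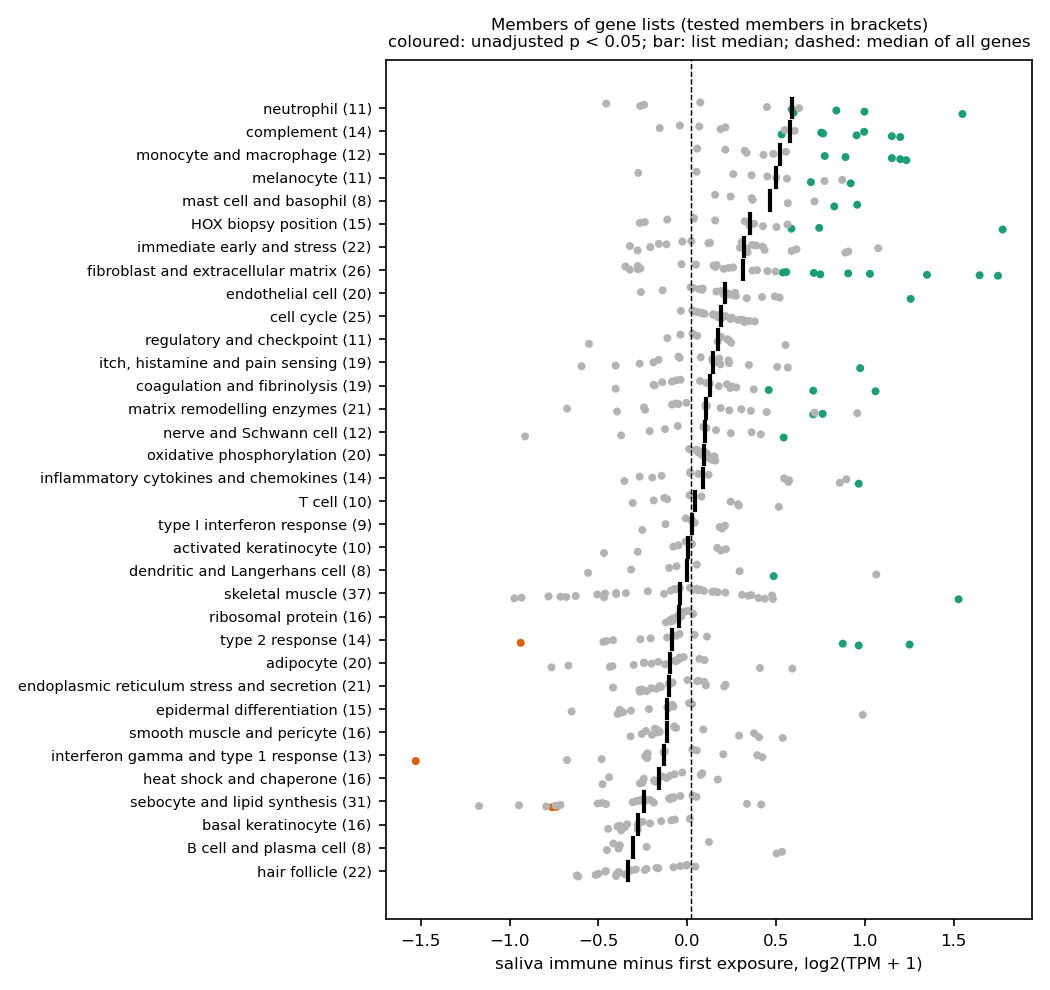
Each row is one of the gene lists of the main set with at least 8 tested members (number in brackets; the 4 lists added after values were seen are not drawn); points are the members' differences, saliva immune minus first exposure, in log2(TPM + 1), black bars list medians, and the dashed line the median of all genes (0.02). Neutrophil (0.59), complement (0.58) and macrophage (0.52) lists have the highest medians among the rows drawn and hair follicle (-0.33) the lowest.

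Further genes higher in saliva immune skin came from clotting and pigment. F5, clotting factor V, had 0.965, 0.706 and 0.849 TPM against 2.35, 4.06 and 2.32 TPM, and passed the filter through the saliva immune libraries alone. PLAUR, the urokinase receptor, had 4.30, 3.30 and 4.16 TPM against 8.81, 6.45 and 6.05 TPM. TYR, the first enzyme of melanin synthesis, had 11.6, 8.93 and 16.3 TPM against 22.4, 18.0 and 32.1 TPM. Of 11 melanocyte genes 10 were higher, with a median of 0.50 and naive TYR at 16.1 and 21.8 TPM. At an unadjusted p under 0.05, 2 were higher (TYR and MLANA), against 2.48% of all tested genes. That count was 5 without saliva immune replicate 2, 4 without first exposure replicate 3, and 1 without first exposure replicate 2. ASPG, an asparaginase, had 103, 102 and 89.1 TPM against 181, 488 and 187 TPM. MYBPC2, a fast muscle protein, had 81.9, 75.6 and 103 TPM against 123, 560 and 228 TPM, with naive skin at 877 and 1554 TPM. ACTN3, another fast muscle gene, overlapped between groups, and MYBPC2 was the only one of 37 muscle genes at that p.

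Genes lower in saliva immune skin at an unadjusted p under 0.05 included 2 of the sebocyte and lipid synthesis list. FAR2, a reductase that makes the fatty alcohols of sebaceous wax, had 16.2, 18.5 and 18.0 TPM in first exposure skin and 6.62, 12.8 and 11.5 TPM in saliva immune skin. ELOVL5, which lengthens polyunsaturated fatty acids, had 224, 340 and 219 TPM against 117, 152 and 201 TPM. The differences were -0.76 (SE 0.25) and -0.74 (SE 0.26) log2 units, without overlap. Of all tested genes, 1.32% had every saliva immune library below every first exposure library. For ELOVL5 naive skin had 116.5 and 66.6 TPM, both below the lowest saliva immune library (117.1 TPM). AWAT1, a wax synthase of sebaceous glands, had 40.1, 64.2 and 49.1 TPM against 15.7, 36.3 and 40.3 TPM and overlapped by a single library. Of 31 sebocyte and lipid genes, 26 were lower, with a median of -0.24. At an unadjusted p under 0.05, 2 were lower (FAR2 and ELOVL5), against 0.586% of all tested genes. That count ranged widely with single libraries: it was 15 without saliva immune replicate 3, 7 without first exposure replicate 1, 0 without first exposure replicate 2, and 1 when each of the other 3 was left out in turn.

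Among surface and gland genes, SERPINA3, a secreted protease inhibitor, had 354, 610 and 397 TPM against 187, 279 and 345 TPM. SERPINA3 belongs to a multigene family whose reads counting can split, so its level is uncertain. CLDN17, a channel-forming tight junction protein, had 35.2, 44.1 and 42.2 TPM against 18.2, 21.2 and 31.8 TPM. CK1 naive skin had 18.1 and 13.5 TPM of CLDN17, but the EF19-5 naive library had 54.9 TPM, above every first exposure library. Atp12a, a proton and potassium pump of epithelia, had 47.1, 52.2 and 54.9 TPM against 31.8, 13.8 and 40.9 TPM. GK5, a glycerol kinase family member, and AADACL3, a deacetylase-like gene, differed by -0.89 and -0.85 log2 units. TMPRSS11E, a membrane protease of epithelium, differed by -0.78. PPP1R1C, a phosphatase inhibitor, and CCER2 differed by -0.88 and -0.81. All of these genes were free of overlap between the groups, which the rule that chose them required.

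Epidermal lists had no gene at an unadjusted p under 0.05, though 15 of 16 basal keratinocyte genes and 20 of 22 hair follicle genes were lower, with medians of -0.28 and -0.33. Without saliva immune replicate 2, the library with the lowest hair follicle share, the hair follicle median was 0.01 and the basal keratinocyte median -0.03. Without saliva immune replicate 3 the basal median was -0.57, and 9 basal genes were lower at that p. Fat genes did not separate the groups, and ADIPOQ, adiponectin, had 1509, 506 and 757 TPM against 692, 639 and 1253 TPM.

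The 2 naive libraries with the prefix CK1 were set beside both groups as a reference. Among the 85 genes lower in saliva immune skin at an unadjusted p under 0.05, the naive mean was nearer saliva immune skin for 71 (83.5%). Among the 360 higher genes it was nearer saliva immune skin for 137 and nearer first exposure skin for 223. The matrix genes FN1, COL14A1 and FBN1 belong to the 137, and MRC1, C1QB and NCF4 to the 223. These counts come from the same first exposure and saliva immune libraries that chose the genes, so they are a description.

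The EF19-5 libraries had not entered the comparison. Over all 13 libraries, 14979 genes reached 1 TPM in at least 2. The 7 libraries of saliva immune, 2 bites and 3 bites skin all lay above the 6 naive and first exposure libraries for 18 genes (0.12%), and below for 1 (0.00668%). All libraries with 2 or 3 bites have the prefix EF19-5, as does only 1 of the 6 without earlier exposure. Earlier exposure and prefix thus partly coincide in this split. LITAFD, a member of the LITAF family of lysosomal membrane proteins, was listed at 0 in all 6 libraries without earlier exposure. It was 1.49, 1.11 and 1.197 TPM in saliva immune skin, 3.15 and 3.27 TPM with 3 bites, and 6.82 and 4.08 TPM with 2 bites. SLC15A2, a peptide transporter, was 0.554 to 1.18 TPM without and 2.31 to 9.12 TPM with earlier exposure. LAT2, an adaptor of B cell and mast cell signalling, was 2.17 to 6.62 TPM without and 7.64 to 23.9 TPM with it. The low values of LITAFD, near 1 TPM in saliva immune skin, rest on few reads, and depth is unknown in TPM. Saliva immune skin chose part of this pattern, so it gives no independent support for those 3 libraries.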

How the data were processed

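RNA was isolated from guinea pig skin with Qiagen RNeasy kits and made into Illumina libraries, per the labels' protocols. Values are TPM as the authors deposited them, in 1 table of 26855 genes. Per the submitters' processing notes the tools included Trimmomatic, StringTie and DESeq, in roles and versions not stated there. An aligner and a genome build were not given in the sources used here. TPM is a share of each library, so a rise in 1 tissue lowers the rest, and depth is unknown.

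Genes with at least 1 TPM in at least 2 of the 6 libraries were compared on log2(TPM + 1), a scale that understates changes of low genes. The test was limma 3.58.1 (empirical Bayes with an intensity trend) in R 4.3.3, two-sided, with Benjamini-Hochberg adjustment over all tested genes and a threshold of 0.05. The fit used the 3 libraries of each group, without covariates. It was tested on simulated data.

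The comparison and the 39 gene lists were chosen with earlier results of these data known. The table held 697 of their 928 entries, and 581 passed the filter. Named genes were, by rule, up to 12 each way with a symbol, at least 5 TPM in the higher group, an unadjusted p under 0.05 and no overlap, plus the 3 smallest p of each list and a fixed panel. STAB1, SIGLEC1, COL6A2, ECM2, LITAFD, LAT2, SLC15A2 and other members named from the lists were chosen after their values were seen. So were the lists of collagen chains, proteoglycans, elastic fibres and scavenger receptors. Alternatives changed normalization, filter, pseudocount, weights, covariate, libraries in the fit and single replicates. Replicate numbers are by order only.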

Additional observations from a re-analysis of the deposited data

How the results depend on the processing

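The count of genes called was 0 in most alternatives. It was 1 (FN1) with the 8 CK1 libraries in the fit and 1 (FN1) with the muscle score as a covariate. Array weights gave 2003 called genes, 2768 higher and 2230 lower at an unadjusted p under 0.05, but the weights had not converged and rested mostly on one library. Gene-by-gene array weights, chosen after seeing the data, gave 16 called, 1793 higher and 1303 lower. The muscle score gave 850 higher and 599 lower. Median-of-ratios scaling gave 271 lower and quantile normalization 264 lower. Leaving out single libraries kept the count called at 0, with 219 to 1065 higher and 43 to 1375 lower genes. No paired analysis was possible because the labels give the groups no shared replicate numbers.

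Differences that changed sign were small against their intervals. With array weights they were -0.71 for C1QA, -0.13 for CD14, -0.40 for CD68 and 0.27 for S100A9. With gene-by-gene weights they were -0.55, -0.085, -0.34 and 0.085 for those genes. Quantile normalization gave 0.016 for ADIPOQ, and a pseudocount of 0.1 gave -0.076 for PITX1. Leaving out single libraries gave -0.38 to 0.41 for ADIPOQ, -0.62 to 0.68 for C1QA, -0.54 to 0.43 for CCL17, -0.35 to 0.15 for CD3E, -0.18 to 0.30 for CD68, -0.74 to 1.17 for PITX1 and -1.31 to 0.38 for S100A9. The cause was not tested.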
